A study of Mus musculus with 12 samples.

Results

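Interferon stimulated genes are genes whose transcription increases when a cell senses an interferon, and 39 of them were followed in the liver of mice given long acting insulins. The 39 genes were chosen by symbol, and a gene was measured by the probe set annotated with that symbol alone, or by the brightest such probe set where there were several. Of the 39 genes, 33 had such a probe set among 28213 probe sets in all, of which 21640 carried 1 symbol. The remaining genes are named here without values. Isg15, Gbp2, Gbp6, Igtp and Irgm2, 5 genes, were found only in probe sets shared with another gene, and Ifi44, 1 gene, in none. All 33 measured genes passed the filter on dim probe sets, which asked for a log2 value over 5 in at least 2 arrays of a treatment.

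The arrays came from the livers of wild type C57BL/6 mice, 6 weeks old by the labels, and the study's methods name female mice. There were 3 arrays each for saline, Albulin at 55 nmol/kg, Insulin-Apo at 55 nmol/kg and insulin glargine at 55 nmol/kg, all given under the skin, with the liver taken 6 h later. Albulin is insulin fused to albumin and Insulin-Apo is insulin fused to apolipoprotein A-I, both recombinant proteins made in E. coli. Insulin glargine is a commercial long acting insulin analog, for which the study gives no production host. Whether the 3 arrays of a treatment came from separate mice is not stated, so p values measure the spread between arrays, which may be technical.

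Type I and type III interferons act through receptors, the kinases Jak1 and Tyk2, and a complex holding Stat2 and Irf9 that binds an interferon stimulated response element (ISRE) near its target genes. Many genes that answer interferon gamma carry a gamma activated site (GAS). The induced genes include transcription factors that widen the response, cytosolic sensors of viral RNA, enzymes and binding proteins that stop viral replication, GTPases that attack the vacuoles of intracellular microbes, and the deconjugase Usp18, which also dampens the receptor. In the liver, hepatocytes and resident macrophages both carry this response.

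The deposited values are log2 expression values, so 1 unit is a doubling, and levels were compared only within a gene. Differences were tested with limma over all probe sets that passed the filter, with Benjamini-Hochberg adjusted p values, and a gene was called when the log odds of a change, B, were over 0. In whole liver, fewer cells of a type and less RNA per cell cannot be told apart. Across the 12 arrays the median log2 value lay between 7.70 and 7.77. On average, an array correlated with the arrays of its own group at 0.995 to 0.997 in saline, Albulin and Insulin-Apo and 0.990 to 0.993 in insulin glargine. The lowest correlation with the other groups, 0.985, was that of insulin glargine replicate 3. Of the 8 hepatocyte markers, 6 were measured, and their mean level was 14.31 to 14.41 in all arrays. None was called, though 2 had an adjusted p under 0.05. Hnf4a differed by 0.28 after Albulin against saline (adjusted p = 0.0313), beside 4.69% of all probe sets. Cps1 differed by -0.26 after Insulin-Apo against insulin glargine (adjusted p = 0.0316), beside 10.8%. The sources do not say in which sets the arrays were processed, so the treatment and a processing set cannot be told apart.

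Among the interferon stimulated genes, 0 of 33 differed from saline by the call after Albulin, beside 2.41% of all probe sets, and 0 of 33 after Insulin-Apo, beside 2.14%. After insulin glargine, 1 member was called higher, beside 2.24% of all probe sets, and 3 were called lower, beside 2.60%. Iigp1, a GTPase of the vacuoles of intracellular pathogens, Parp14, an ADP-ribosyltransferase of antiviral defense, and Ddx58, the RNA sensor RIG-I, fell after insulin glargine. Oasl1, a protein of the oligoadenylate synthetase family that represses Irf7 translation, rose. Over the 4 treatments, 11 of the 33 members differed in the moderated F test at an adjusted p under 0.05, beside 13.3% of all probe sets (limma). The 11 were Iigp1, Parp14, Irf1, Oasl1, Gbp7, Ddx58, Trim30a, Usp18, Gbp3, Irf7 and Irf9. Without Albulin replicate 1, or without insulin glargine replicate 1, 7 members passed that test. The shares of all probe sets given here and below are from the fits without an array left out. The map of all 33 members by array shows where the differences lie.

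**Figure D1:**
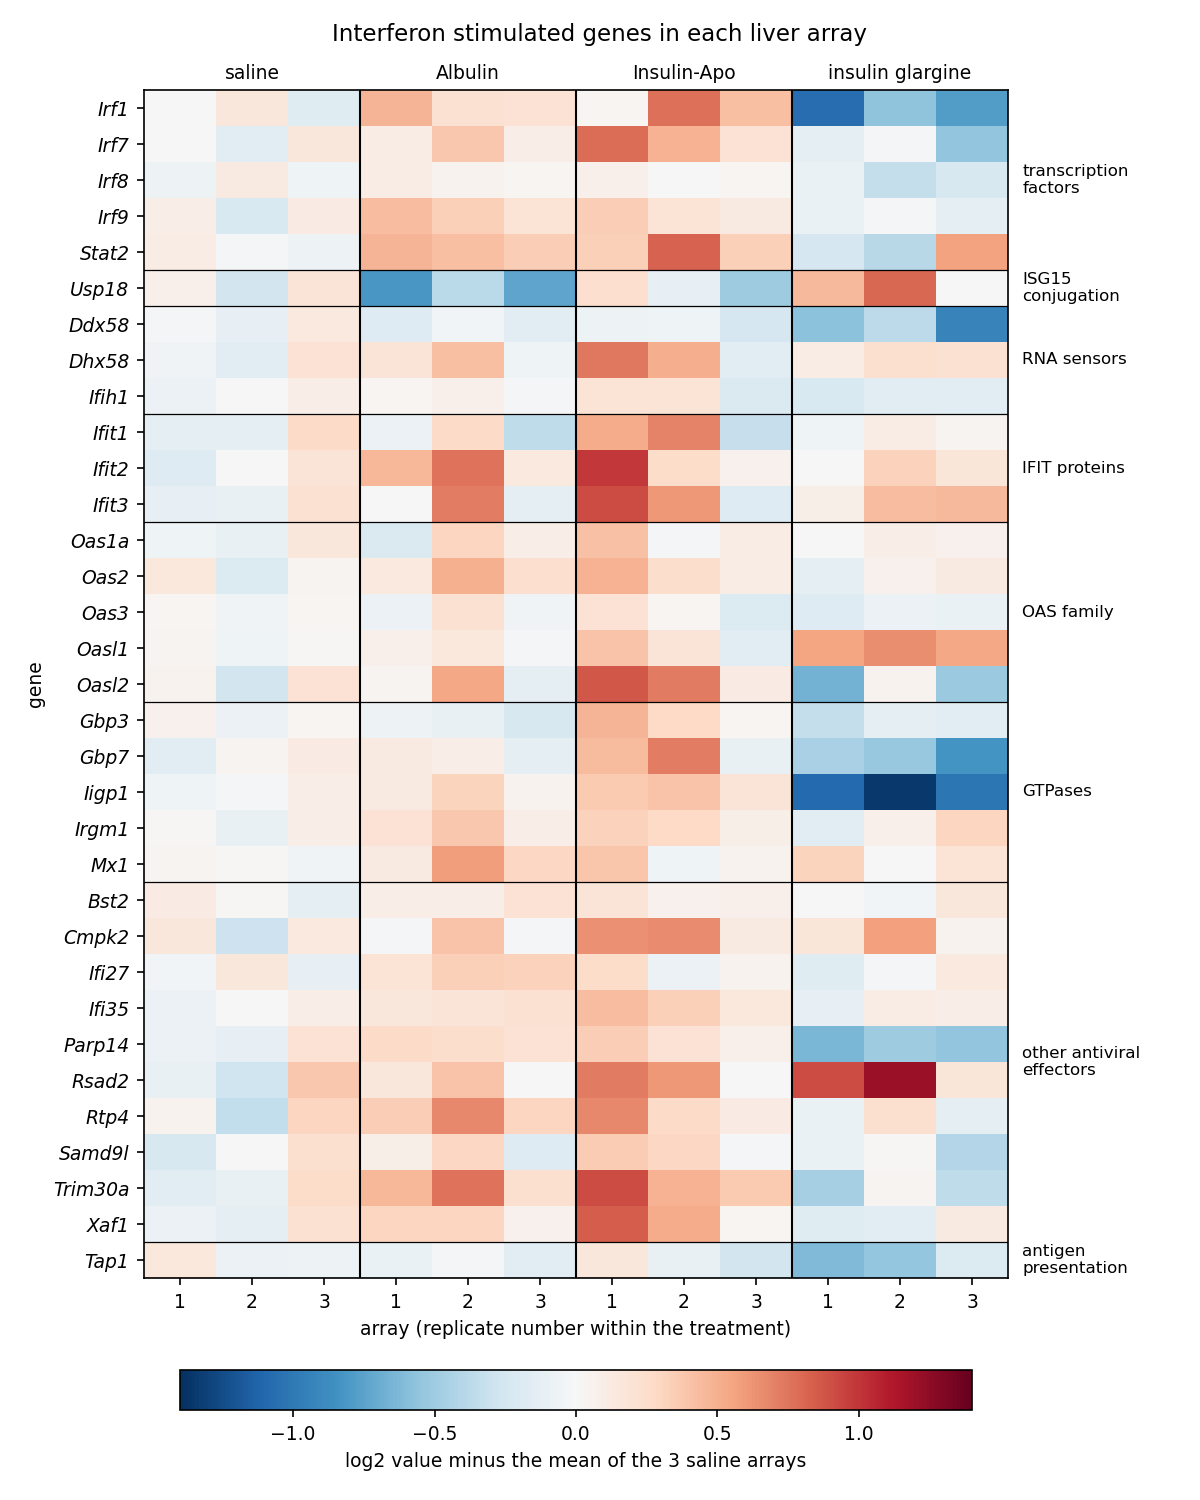
Each row is 1 of the 33 measured interferon stimulated genes, ordered by role, and each column is 1 array. The color is the log2 value minus the mean of the 3 saline arrays, from blue for lower to red for higher. Iigp1, Irf1, Gbp7, Parp14 and Ddx58 are blue in all 3 insulin glargine arrays and Oasl1 is red in them, while most members are pale red in Insulin-Apo replicates 1 and 2 and in Albulin replicate 2.

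Promoter windows were available from RefSeq (GRCm38.p6) for 30 of the 39 genes, and were searched for the ISRE and GAS motifs described above. In the 250 bases before the start site, the ISRE core GAAANNGAAA, searched on both strands, was present in 15 of the 30 genes and in 3.46% of the 27025 genes of the table. The GAS core TTCNNNGAA, which reads the same on both strands, was present in 8 of the 30 genes and in 8.13% of all genes. A gene with windows at several start sites was counted once, if any of them held the motif. The 2 motifs were counted separately in these values, and a match describes letters and not a bound site. At least 1 of the 2 motifs was present in 14 of the 25 measured members with a window and in 11.1% of all genes. Of the 11 members that differed among treatments, 4 held a match, and their windows follow with the motif letters in capitals, 25 bases on each side where the 250 bases allowed it, and the gene's own strand.
Irf1, chr11:53769899-53769957, + strand, 1 GAS match: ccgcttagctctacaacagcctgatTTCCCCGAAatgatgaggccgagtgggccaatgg
Gbp7, chr3:142530205-142530317, + strand, 2 GAS matches and 1 ISRE match: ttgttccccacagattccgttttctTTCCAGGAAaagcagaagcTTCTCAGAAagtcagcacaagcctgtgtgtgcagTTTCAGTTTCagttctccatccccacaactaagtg
Gbp3, chr3:142559974-142560039, + strand, 2 overlapping ISRE matches: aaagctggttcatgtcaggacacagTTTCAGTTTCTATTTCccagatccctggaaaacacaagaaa
Trim30a, chr7:104465195-104465254, - strand, 1 ISRE match: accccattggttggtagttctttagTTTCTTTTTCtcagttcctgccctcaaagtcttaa
Of the other 7, Oasl1, Ddx58, Irf7 and Irf9 held no match in their windows, and Iigp1, Parp14 and Usp18 had no entry. Irf1, Gbp3 and Trim30a each had a further window, at another start site, without a match. The levels of the 4 genes shown are given below with those of their classes.

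The transcription factors were Irf1, Irf7, Irf8, Irf9 and Stat2, 5 genes. Irf1, an activator of both interferon responses, measured 9.17, 9.33 and 9.0 in saline, 9.64, 9.38 and 9.37 after Albulin, 9.20, 9.93 and 9.59 after Insulin-Apo, and 8.10, 8.60 and 8.39 after insulin glargine. The 3 insulin glargine arrays lay below the other 9 arrays, and the Insulin-Apo arrays overlapped saline. Irf1 was 2.15-fold higher after Albulin than after insulin glargine (log2 difference 1.10 ± 0.17 SE, adjusted p = 0.00161) and 2.32-fold higher after Insulin-Apo than after insulin glargine (1.21 ± 0.17, adjusted p = 0.000871), and both were called. Against saline, the insulin glargine difference of -0.80 ± 0.17 had an adjusted p of 0.0097 and a B of -0.14, and was not called. A further probe set of Irf1, with a mean level of 7.77 against 9.14, gave log2 differences between -0.11 and 0.07 in the 6 comparisons, so the probe sets of this gene disagreed. With the mean of both probe sets, Irf1 was still called against insulin glargine, by 0.59 after Albulin and 0.63 after Insulin-Apo.

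Irf7, the factor that amplifies type I interferon production, measured 9.43, 9.28 and 9.60 in saline, 9.54, 9.81 and 9.53 after Albulin, 10.22, 9.92 and 9.64 after Insulin-Apo, and 9.30, 9.42 and 8.88 after insulin glargine. All Insulin-Apo arrays were above all saline arrays, by a mean of 0.49 ± 0.14 (adjusted p = 0.085). The difference between Insulin-Apo and insulin glargine was 0.73 ± 0.16 (adjusted p = 0.012, B = -0.46). Irf9, the DNA binding subunit of the ISRE complex, measured 10.14, 9.84 and 10.15 in saline, 10.48, 10.38 and 10.23 after Albulin, 10.39, 10.23 and 10.17 after Insulin-Apo, and 9.95, 10.02 and 9.91 after insulin glargine. Every array of both fusion proteins was above every saline and insulin glargine array, with differences from saline of 0.32 ± 0.10 after Albulin (adjusted p = 0.114) and 0.22 ± 0.10 after Insulin-Apo (adjusted p = 0.296).

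Stat2, the transactivating subunit of the same complex, measured 9.80, 9.67 and 9.63 in saline, 10.18, 10.12 and 10.04 after Albulin, 10.04, 10.52 and 10.03 after Insulin-Apo, and 9.46, 9.31 and 10.26 after insulin glargine. The arrays of both fusion proteins lay above saline, and insulin glargine replicate 3 stood above all saline arrays while the other arrays of its group were below them. Stat2 had the smallest adjusted p of all members against saline after Insulin-Apo, 0.0445, for a difference of 0.50 ± 0.12 with a B of -1.0. After Albulin the difference was 0.41 ± 0.12 (adjusted p = 0.0806). Irf8, a factor of myeloid cells, measured between 8.50 and 8.96 in all arrays and was not called in any of the 6 comparisons. Its insulin glargine arrays, at 8.74, 8.50 and 8.62, lay below all other arrays. The difference from saline was -0.22 ± 0.08 (adjusted p = 0.106). Against insulin glargine it was 0.28 ± 0.08 after Albulin (adjusted p = 0.0456) and 0.25 ± 0.08 after Insulin-Apo (adjusted p = 0.0608).

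**Figure D2:**
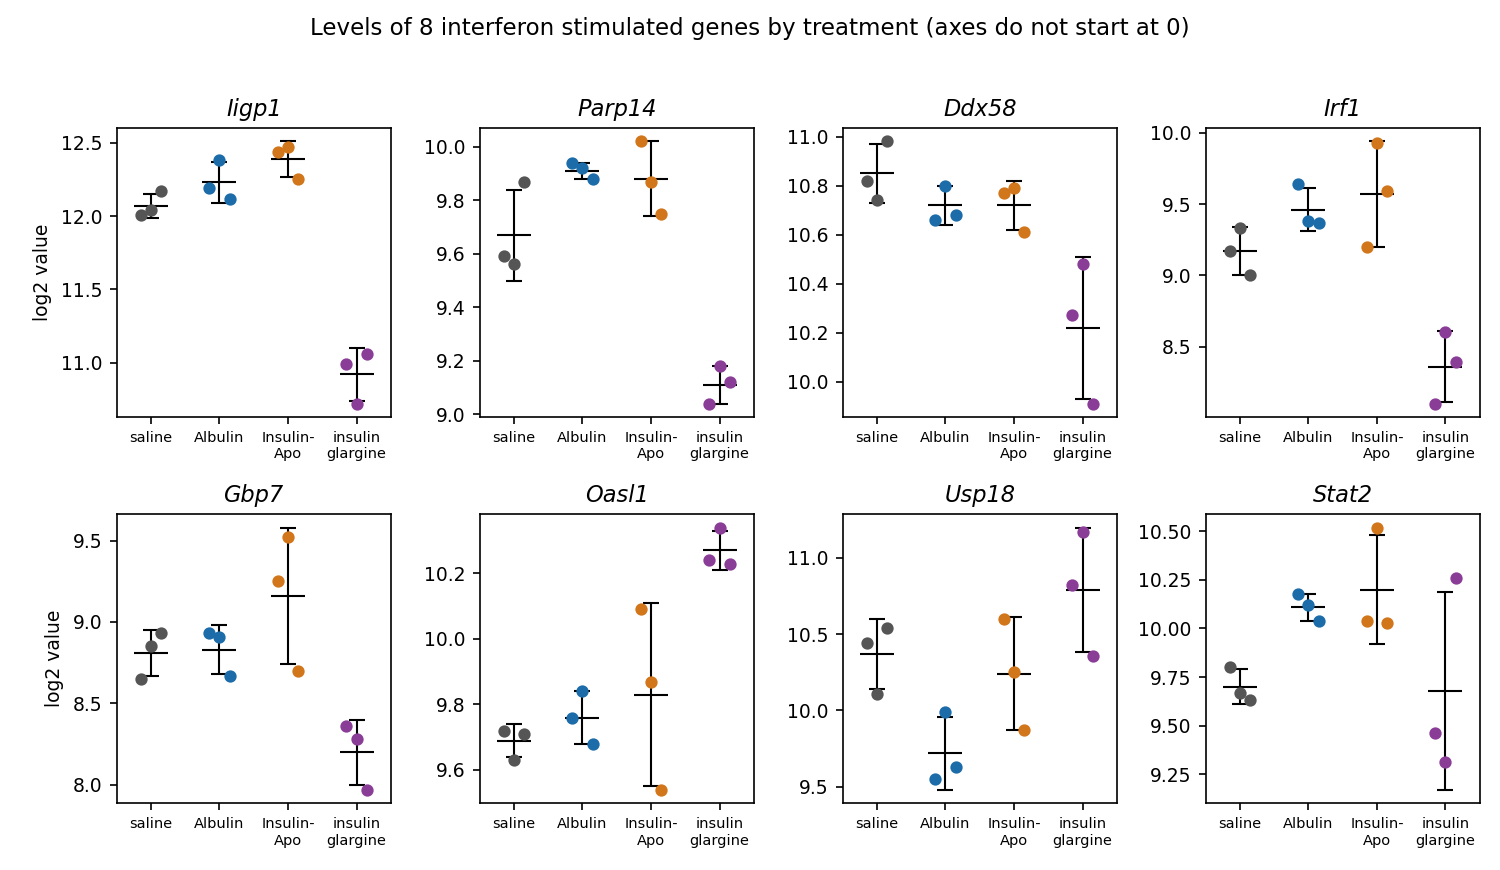
Each panel is 1 gene, with the log2 value of every array as a point and the mean with its SD (n = 3) as a bar for saline, Albulin, Insulin-Apo and insulin glargine. The vertical axes differ between panels and do not start at 0. The insulin glargine points lie apart from the other 9 in Iigp1, Parp14, Ddx58, Irf1, Gbp7 and Oasl1, the Albulin points lie lowest in Usp18 as a group, and 1 insulin glargine point stands apart in Stat2.

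Usp18, which removes the ubiquitin-like protein Isg15 from its targets and binds the interferon receptor, measured 10.44, 10.11 and 10.54 in saline, 9.55, 9.99 and 9.63 after Albulin, 10.60, 10.25 and 9.87 after Insulin-Apo, and 10.82, 11.17 and 10.36 after insulin glargine. All Albulin arrays lay below all saline and insulin glargine arrays, and they overlapped Insulin-Apo replicate 3. The level was 2.09-fold lower after Albulin than after insulin glargine (log2 difference -1.06 ± 0.22, adjusted p = 0.00804), and this was called. The call was lost in 9 of 24 alternatives, namely with centred arrays, with only the arrays compared, and without saline replicate 1 or 3, Albulin replicate 1 or 3, Insulin-Apo replicate 2, or insulin glargine replicate 1 or 2, with differences of -1.08 to -0.87 in these. Against saline the Albulin difference was -0.64 ± 0.18 (adjusted p = 0.0737), and against Insulin-Apo -0.52 ± 0.18 (adjusted p = 0.252), neither of them called.

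The RNA sensors were Ddx58, Ifih1 (MDA5) and Dhx58 (LGP2), 3 genes. Ddx58 measured 10.82, 10.74 and 10.98 in saline, 10.66, 10.80 and 10.68 after Albulin, 10.77, 10.79 and 10.61 after Insulin-Apo, and 10.27, 10.48 and 9.91 after insulin glargine. The insulin glargine arrays were the lowest of the 12, and the difference from saline was -0.63 ± 0.12 (adjusted p = 0.00577, called). The call was lost when each array was centred on its median, with only the arrays compared, and without saline replicate 1, saline replicate 3 or insulin glargine replicate 1, with differences of -0.65 to -0.56. Ifih1 lay between 9.97 and 10.37 and Dhx58 between 8.59 and 9.49, and neither was called in any comparison.

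The oligoadenylate synthetase family was represented by Oas1a, Oas2, Oas3, Oasl1 and Oasl2, 5 genes, and the enzymes among them make the messenger that activates RNase L. Oasl1 measured 9.72, 9.63 and 9.71 in saline, 9.76, 9.84 and 9.68 after Albulin, 10.09, 9.87 and 9.54 after Insulin-Apo, and 10.24, 10.34 and 10.23 after insulin glargine. All insulin glargine arrays were above the other 9, by 0.58 ± 0.11 over saline (adjusted p = 0.00521, called). The call was lost when any 1 of the 3 saline or 3 insulin glargine arrays was left out, with differences of 0.55 to 0.60. Its relative Oasl2 measured 8.67, 8.38 and 8.84 in saline, 8.67, 9.17 and 8.50 after Albulin, 9.50, 9.36 and 8.74 after Insulin-Apo, and 7.96, 8.67 and 8.11 after insulin glargine. Oasl2 overlapped saline in all 3 insulin groups, with differences of 0.15 ± 0.21 after Albulin (adjusted p = 0.789), 0.57 ± 0.21 after Insulin-Apo (adjusted p = 0.177) and -0.38 ± 0.23 after insulin glargine (adjusted p = 0.40). Insulin-Apo minus insulin glargine was 0.95 ± 0.23 in Oasl2 (adjusted p = 0.0198, B = -1.20) and -0.44 ± 0.11 in Oasl1 (adjusted p = 0.0237, B = -1.47), differences of opposite sign that were not called.

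Among the GTPases, 5 of 9 genes were measured. Iigp1 measured 12.01, 12.04 and 12.17 in saline, 12.19, 12.38 and 12.12 after Albulin, 12.44, 12.47 and 12.25 after Insulin-Apo, and 10.99, 10.72 and 11.06 after insulin glargine. The insulin glargine arrays were apart from the other 9, while Albulin overlapped saline and the Insulin-Apo arrays lay above it. Iigp1 was 2.22-fold lower after insulin glargine than after saline (log2 difference -1.15 ± 0.10, adjusted p = 5.9e-05), the smallest p of the 33 members in that comparison. The same gene was 2.48-fold higher after Albulin (adjusted p = 1.58e-05) and 2.76-fold higher after Insulin-Apo (adjusted p = 1.06e-05) than after insulin glargine. Against saline the Insulin-Apo difference was 0.31 ± 0.09 (adjusted p = 0.0807).

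Gbp7, a guanylate binding protein, measured 8.65, 8.85 and 8.93 in saline, 8.93, 8.91 and 8.67 after Albulin, 9.25, 9.52 and 8.70 after Insulin-Apo, and 8.36, 8.28 and 7.97 after insulin glargine. The insulin glargine arrays were again below all others. Gbp7, whose promoter held matches of both motifs, was 1.94-fold higher after Insulin-Apo than after insulin glargine (adjusted p = 0.00401, called). This call was lost with only the arrays compared and without Insulin-Apo replicate 1 or 2 or insulin glargine replicate 3, with differences of 0.77 to 0.96. Its difference between insulin glargine and saline was -0.61 ± 0.17 (adjusted p = 0.043, B = -2.32). Gbp3, of the same family, measured 8.31, 8.16 and 8.27 in saline, 8.18, 8.15 and 8.03 after Albulin, 8.72, 8.53 and 8.27 after Insulin-Apo, and 7.92, 8.11 and 8.10 after insulin glargine. Its Albulin arrays lay below its Insulin-Apo arrays, by -0.39 ± 0.10 (adjusted p = 0.154). Irgm1, a regulator of autophagy, lay between 10.28 and 10.82 and Mx1 between 6.53 and 7.18, and neither was called.

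The IFIT proteins bind viral RNA without host caps. Ifit2, the member of the family with the smallest F test p (adjusted p = 0.379), measured 7.15, 7.32 and 7.51 in saline, 7.79, 8.09 and 7.46 after Albulin, 8.32, 7.58 and 7.39 after Insulin-Apo, and 7.33, 7.64 and 7.50 after insulin glargine. All groups overlapped, and Insulin-Apo spanned the widest range. The differences of Ifit2 from saline were 0.45 ± 0.22 after Albulin (adjusted p = 0.312) and 0.44 ± 0.22 after Insulin-Apo (adjusted p = 0.344). Ifit1 and Ifit3 had differences from saline between -0.06 and 0.45 over the 3 insulins, none of them called.

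Of the 11 other antiviral effectors, 10 were measured. Parp14 measured 9.59, 9.56 and 9.87 in saline, 9.94, 9.92 and 9.88 after Albulin, 10.02, 9.87 and 9.75 after Insulin-Apo, and 9.04, 9.18 and 9.12 after insulin glargine. The insulin glargine arrays were below all others, by -0.56 ± 0.09 from saline (adjusted p = 0.00242, called). Parp14 was 1.74-fold higher after Albulin (adjusted p = 0.000235) and 1.70-fold higher after Insulin-Apo (adjusted p = 0.000306) than after insulin glargine, both called.

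Trim30a, a ubiquitin ligase family protein that restrains signaling to NF-kB, measured 9.15, 9.19 and 9.56 in saline, 9.76, 10.06 and 9.53 after Albulin, 10.21, 9.79 and 9.67 after Insulin-Apo, and 8.84, 9.34 and 8.94 after insulin glargine. Its Insulin-Apo arrays were above saline, and its Albulin replicate 3 was not. It had the widest differences from saline among the members after Insulin-Apo, 0.59 ± 0.17 (adjusted p = 0.0821), and the widest positive one after Albulin, 0.48 ± 0.17 (adjusted p = 0.145). Trim30a was not called against insulin glargine either, where Insulin-Apo differed by 0.85 ± 0.18 (adjusted p = 0.00889, B = -0.01). Rsad2, the antiviral enzyme viperin, measured 8.80, 8.63 and 9.29 in saline, 9.06, 9.31 and 8.92 after Albulin, 9.63, 9.51 and 8.90 after Insulin-Apo, and 9.82, 10.11 and 9.07 after insulin glargine. Its insulin glargine replicate 3 lay inside the saline range, and the difference was 0.76 ± 0.26 (adjusted p = 0.0833). The other 7, Bst2, Cmpk2, Ifi27, Ifi35, Rtp4, Samd9l and Xaf1, had no call in any comparison.

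Tap1, a subunit of the peptide transporter of antigen presentation, measured 9.26, 9.03 and 9.04 in saline, 9.02, 9.09 and 8.95 after Albulin, 9.27, 9.0 and 8.86 after Insulin-Apo, and 8.49, 8.57 and 8.92 after insulin glargine. All insulin glargine arrays were below the saline arrays, with a difference of -0.45 ± 0.12 (adjusted p = 0.0349, B = -2.03) that was not called.

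The first question of the design was what each fusion protein changes in the liver against saline. After Albulin, 0 of 33 members were called, beside 2.41% of all probe sets, and 0 had an adjusted p under 0.05, beside 4.69% of all probe sets. At an unadjusted p under 0.05, 10 members were higher, beside 8.98% of all probe sets, and 1, Usp18, was lower, beside 9.08%. The median log2 difference of the members was 0.18 and 28 of 33 were positive, beside a median of 0 and 50.9% positive over all probe sets. Without Albulin replicate 2 the median of the members was 0.08. All 10 measured effectors and all 5 transcription factors had positive values, with medians of 0.21 and 0.30. Stat2 was called without Insulin-Apo replicate 2, an array that enters the fit through its estimate of the spread.

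After Insulin-Apo, 0 of 33 members were called, beside 2.14% of all probe sets, and 1, Stat2, had an adjusted p under 0.05, beside 3.73%. At an unadjusted p under 0.05, 12 members were higher, beside 9.13%, and 0 lower, beside 8.28%. The median difference was 0.28 and 30 of 33 were positive, beside a median of -0.02 and 44.1% positive over all probe sets. Without Insulin-Apo replicate 1 the median of the members was 0.18, and without replicate 3 it was 0.38. The largest members by difference were Trim30a, Oasl2 and Stat2. Both comparisons share the saline arrays, so their values are not separate evidence. Without Insulin-Apo replicate 3, the array with the lowest value of its group in 27 of the 33 members, 3 members were called, namely Ifi35, Irf7 and Xaf1.

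**Figure D3:**
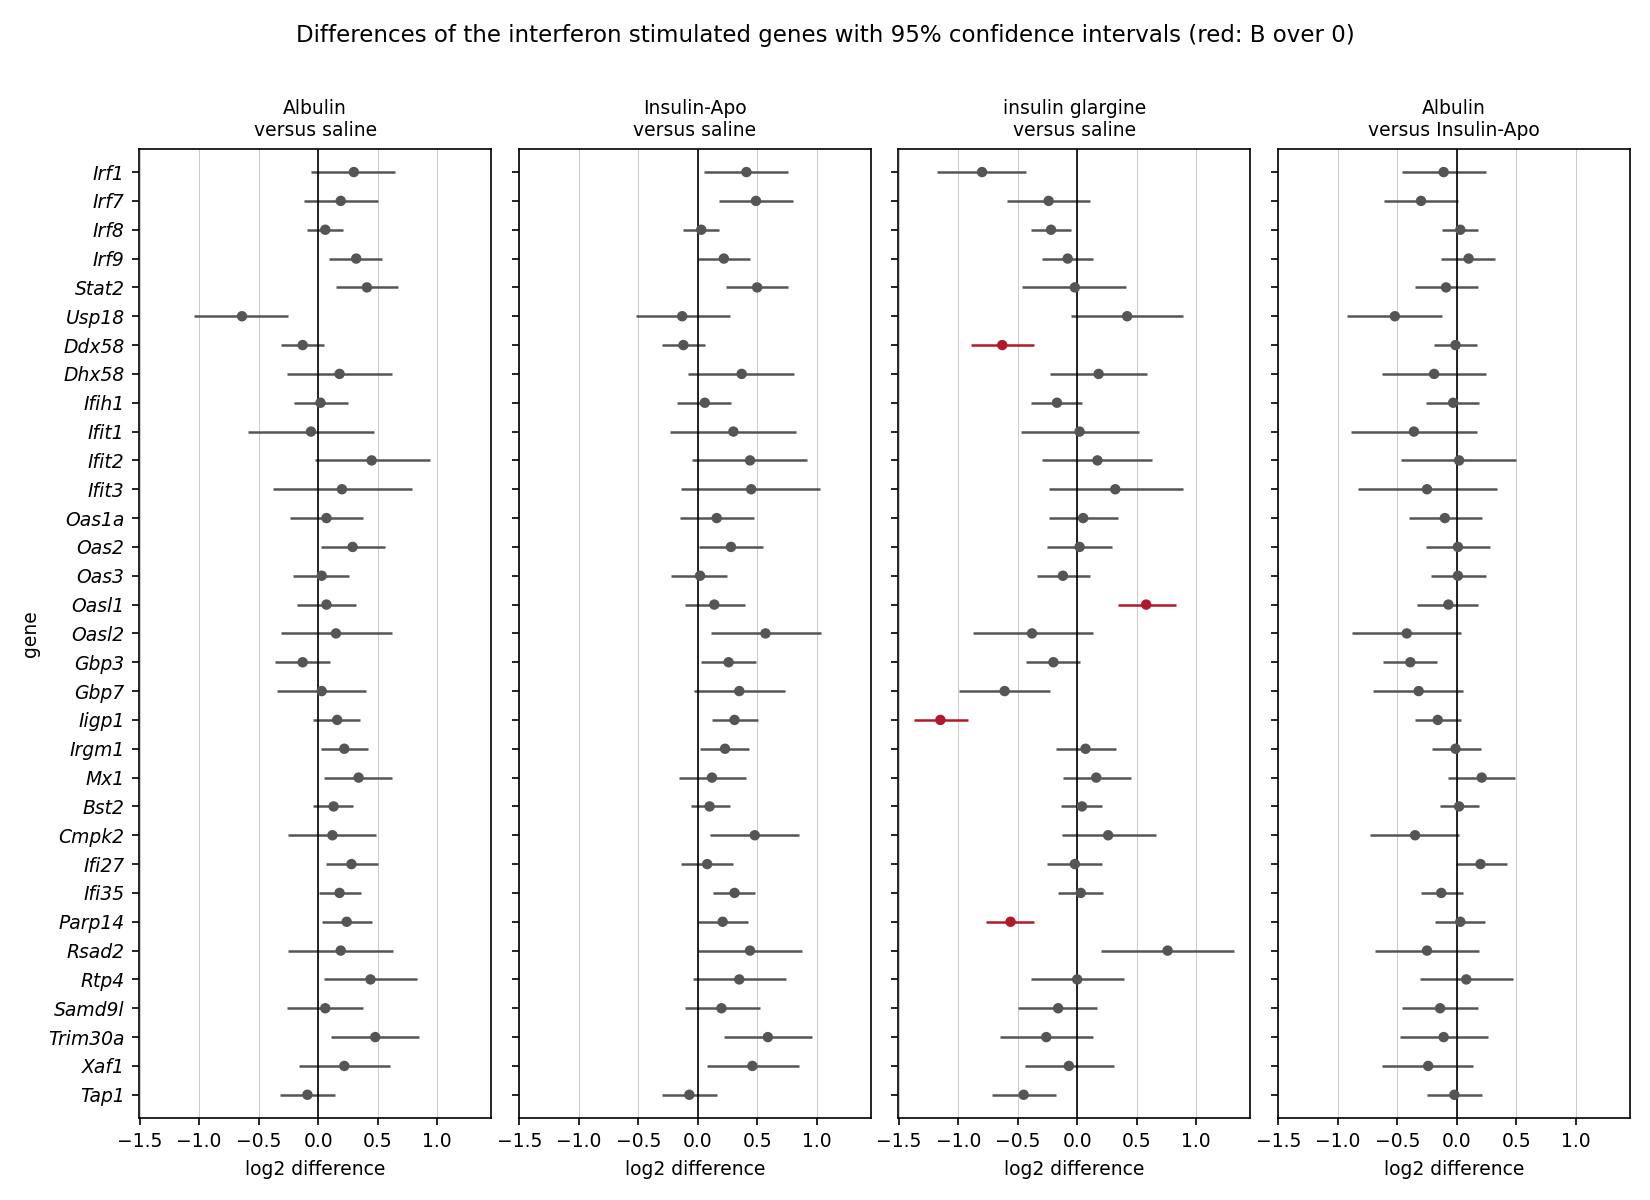
Each point is the log2 difference of 1 of the 33 genes, with its 95% confidence interval from limma, in 4 panels, namely Albulin, Insulin-Apo and insulin glargine against saline, and Albulin against Insulin-Apo. Red marks a B over 0. Most points of the Albulin and Insulin-Apo panels lie right of 0 without a call, 4 points are red against saline after insulin glargine, and no point is red between the fusion proteins.

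The fusion proteins, which differ in the protein that insulin is joined to, were compared at the same dose and time. Between Albulin and Insulin-Apo, 0 of 33 members were called, beside 0.639% of all probe sets, and 0 had an adjusted p under 0.05, beside 0.139%. At an unadjusted p under 0.05, 0 members were higher, beside 6.44%, and 2, Usp18 and Gbp3, were lower after Albulin, beside 7.11%. The median difference was -0.10 beside 0.02 over all probe sets, with 10 positive members, beside 56.6% of all probe sets. Leaving out Insulin-Apo replicate 1 gave a median of the members of 0.02, and leaving out replicate 3 gave -0.17. The 95% confidence interval lay within 1 log2 unit of 0 for all 33 members and within 0.58 for 22, so smaller differences were not resolved in the rest. The widest difference was that of Usp18, -0.52 with an interval of -0.92 to -0.12. Gbp3 was called lower after Albulin without Insulin-Apo replicate 3.

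Against saline, insulin glargine had 1 of 33 members called higher, beside 2.24% of all probe sets, and 3 called lower, beside 2.60%. Adjusted p values under 0.05 were found for 7 members, namely Oasl1 higher and Iigp1, Irf1, Parp14, Ddx58, Gbp7 and Tap1 lower, beside 10.9% of all probe sets. The median difference over the members was -0.02, with 14 positive, beside 0 and 49.9% positive over all probe sets. The called members thus moved while the list as a whole had its median near 0. That median was -0.13 without saline replicate 2 and 0.04 without insulin glargine replicate 1. All 5 transcription factors were negative, with a median of -0.22, and all 3 IFIT genes were positive, with a median of 0.17. Without saline replicate 1, saline replicate 3 or insulin glargine replicate 1, each left out alone, 2 members were called, Iigp1 and Parp14.

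Albulin against insulin glargine gave 3 members called higher, Iigp1, Irf1 and Parp14, beside 2.35% of all probe sets, and 1 called lower, Usp18, beside 2.01%. At an adjusted p under 0.05 there were 10, beside 8.94%. The median was 0.27, with 26 positive, beside 0.01 and 52.1% positive over all probe sets. Without Albulin replicate 2 the median of the members was 0.17.

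Insulin-Apo against insulin glargine gave 4 called higher, Iigp1, Irf1, Gbp7 and Parp14, beside 2.88% of all probe sets, and 0 called lower, beside 1.96%. At an adjusted p under 0.05 there were 10, beside 10.8%. The median was 0.28, with 29 positive, beside -0.02 and 43.9% positive over all probe sets. The count rose to 9 without Insulin-Apo replicate 3 and to 7 without insulin glargine replicate 2, with no share of all probe sets computed for these fits. The median of the members was 0.44 without Insulin-Apo replicate 3. Iigp1, Irf1 and Parp14 were called whichever array was left out. All 3 comparisons with insulin glargine share its arrays.

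The other genes of the pathway are given as counts of calls, to be read beside the share of all probe sets called. Against saline that share was 2.41% after Albulin and 2.14% after Insulin-Apo, in either direction. After insulin glargine it was 2.24% higher and 2.60% lower. Against insulin glargine it was 2.35% higher and 2.01% lower after Albulin, and 2.88% higher and 1.96% lower after Insulin-Apo. Between the fusion proteins it was 0.639% in either direction. Of 17 interferon ligands, 14 had a probe set and 12 passed the filter, and none was called in any of the 6 comparisons. Ifna12 was higher by 0.57 after Albulin than after saline (adjusted p = 0.0385, B = -1.05), the 1 ligand with an adjusted p under 0.05. Ifnb1, interferon beta, measured 6.13 to 6.20 in saline, 6.21 to 6.50 after Albulin, 6.04 to 6.10 after Insulin-Apo and 6.16 to 6.38 after insulin glargine. Of the 6 receptor subunits, all were measured and none was called. By an adjusted p under 0.05, Ifngr2 and Il10rb were lower after insulin glargine than after saline, by -0.43 and -0.71. Of all probe sets, 10.9% had such a p there. Il10rb was higher after Albulin than after insulin glargine, by 0.66, beside 8.94%. Ifnar1, Ifngr2 and Il10rb were higher after Insulin-Apo than after insulin glargine, by 0.43, 0.37 and 0.79, beside 10.8%. The insulin glargine arrays measured 10.21, 10.17 and 9.73 in Ifnar1, 8.39, 8.67 and 7.72 in Il10rb, and 11.38, 11.39 and 11.60 in Ifngr2. Replicate 3 was thus the lowest of its group in Ifnar1 and Il10rb and the highest in Ifngr2.

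Of the 5 kinases and STAT factors, 4 were measured. Stat3, which acts downstream of interleukin-6 family cytokines, rose by 0.76 after Albulin (adjusted p = 0.000577) and by 0.53 after Insulin-Apo (adjusted p = 0.00482) against saline, and Jak1 rose by 0.39 after Albulin (adjusted p = 0.0136). Tyk2 fell by 0.49 after insulin glargine (adjusted p = 0.00106). Of the 5 inhibitors, Socs3, a target of Stat3 that blocks cytokine receptors, measured 8.80, 8.92 and 8.59 in saline, 11.48, 11.30 and 10.67 after Albulin, 10.38, 11.47 and 10.12 after Insulin-Apo, and 8.90, 8.85 and 8.89 after insulin glargine. The arrays of both fusion proteins stood above all others, with rises of 2.38 (adjusted p = 0.00198) and 1.89 (adjusted p = 0.00788) over saline. The phosphatase Ptpn2 rose by 0.90 after Albulin (adjusted p = 0.00166) and by 0.55 after Insulin-Apo (adjusted p = 0.0214).

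The 18 symbols listed for nucleic acid and endotoxin sensing named 16 genes, all of them measured. Mb21d1 and Tmem173 are former symbols of Cgas and Sting1. Against saline, 2 were called higher after Albulin, Myd88 by 0.85 and Sting1 by 0.62, and 2 after Insulin-Apo, the endotoxin coreceptors Cd14 by 0.76 and Ly96 by 0.65. After insulin glargine, Cd14 by 2.77 and Tbk1 by 0.39 were called higher and Irf3 by -0.53 lower. Of 50 other interferon induced genes, 44 were measured. Against saline, 1 rose after Albulin, beside 2.41% of all probe sets, and 2 rose after Insulin-Apo, beside 2.14%, with Mx2 among both. Insulin glargine had 1 called higher, Mx2, beside 2.24%, and 4 called lower, beside 2.60%, among them Ube2l6 by -0.90 and Gbp11 by -0.85. Between Insulin-Apo and insulin glargine, 12 of the 44 were called higher, beside 2.88% of all probe sets, and 0 lower, beside 1.96%. Among the 12 were Ube2l6 by 1.53 and Herc6 by 1.24. Between Albulin and insulin glargine, 6 of the 44 were called higher, beside 2.35%, and 0 lower, beside 2.01%. Among the kinases, inhibitors and sensing genes, Albulin had 2, 1 and 2 called higher than insulin glargine, and Insulin-Apo had 2 in each class, while Cd14 was the 1 gene called lower after either. The phosphatase Ptpn6 fell by 0.38 after insulin glargine against saline (adjusted p = 0.00175), and Ly96 was the 1 gene of these classes called between the fusion proteins, by -0.74 after Albulin (adjusted p = 0.0499).

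Markers of leukocytes moved with some of these comparisons. The mean level of 9 neutrophil markers was 6.95 to 7.20 in saline, 7.60 to 7.76 after Albulin, 7.39 to 7.58 after Insulin-Apo and 6.83 to 7.08 after insulin glargine. Against saline, 4 of the 9 were called higher after Albulin, beside 2.41% of all probe sets, and 0 after Insulin-Apo, beside 2.14%. After Insulin-Apo, S100a8 by 0.80 and S100a9 by 0.49 had an adjusted p under 0.05 against saline. Against insulin glargine, 6 were called higher after Albulin, beside 2.35%, and 4 after Insulin-Apo, beside 2.88%. Mpo, at 7.02 to 7.39 over all arrays, and Elane, at 7.37 to 7.74, were not called in any comparison. The same shares stand beside the marker calls below. For 11 macrophage markers, Kupffer cells included, the mean level was 10.07 to 10.29 in saline, 10.30 to 10.48 after Albulin, 10.28 to 10.71 after Insulin-Apo and 9.71 to 10.36 after insulin glargine. Of these 11, Marco was called higher after Insulin-Apo against saline, and Marco and Cd68 against insulin glargine. For the 7 dendritic cell markers the mean level was 6.65 to 7.0 over all arrays, with no call. Of the T and NK cell, B cell and endothelial markers, Nkg7 and Kdr were called higher after Insulin-Apo than after insulin glargine, and Cd79b, Ms4a1 and Kdr after Albulin than after insulin glargine, with no other call. The endothelial markers split, and against insulin glargine 5 of the 9 were positive and 4 negative after either fusion protein. After insulin glargine against saline, Lyve1 was higher by 1.15 (adjusted p = 0.0111) and Pecam1 by 0.31 (adjusted p = 0.0175). Kdr was lower there, by -0.37 (adjusted p = 0.0311), and 10.9% of all probe sets had an adjusted p under 0.05. The part of these cells in the members' values was not tested.

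The members also moved together between some arrays of a treatment and less so between others. Relative to the saline mean, the median of the 33 members was -0.02, -0.10 and 0.12 in the saline arrays, 0.12, 0.30 and 0.05 after Albulin, 0.40, 0.28 and 0.05 after Insulin-Apo, and -0.12, -0.01 and 0.00 after insulin glargine. Albulin replicate 3 and Insulin-Apo replicate 3 lay inside the range of the saline arrays. Insulin-Apo replicate 1 was above replicate 3 in 32 of 33 members, with a median difference of 0.40 beside -0.02 over all probe sets. Albulin replicate 2 was above replicate 3 in 31 of 33, with a median difference of 0.26 beside 0 over all probe sets. In saline, replicate 1 was above replicate 2 in 22 of 33, and replicate 2 was above replicate 3 in 6. In insulin glargine, replicate 1 was above replicate 2 in 6 of 33 and above replicate 3 in 12. The cause of this spread was not tested.

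**Figure D4:**
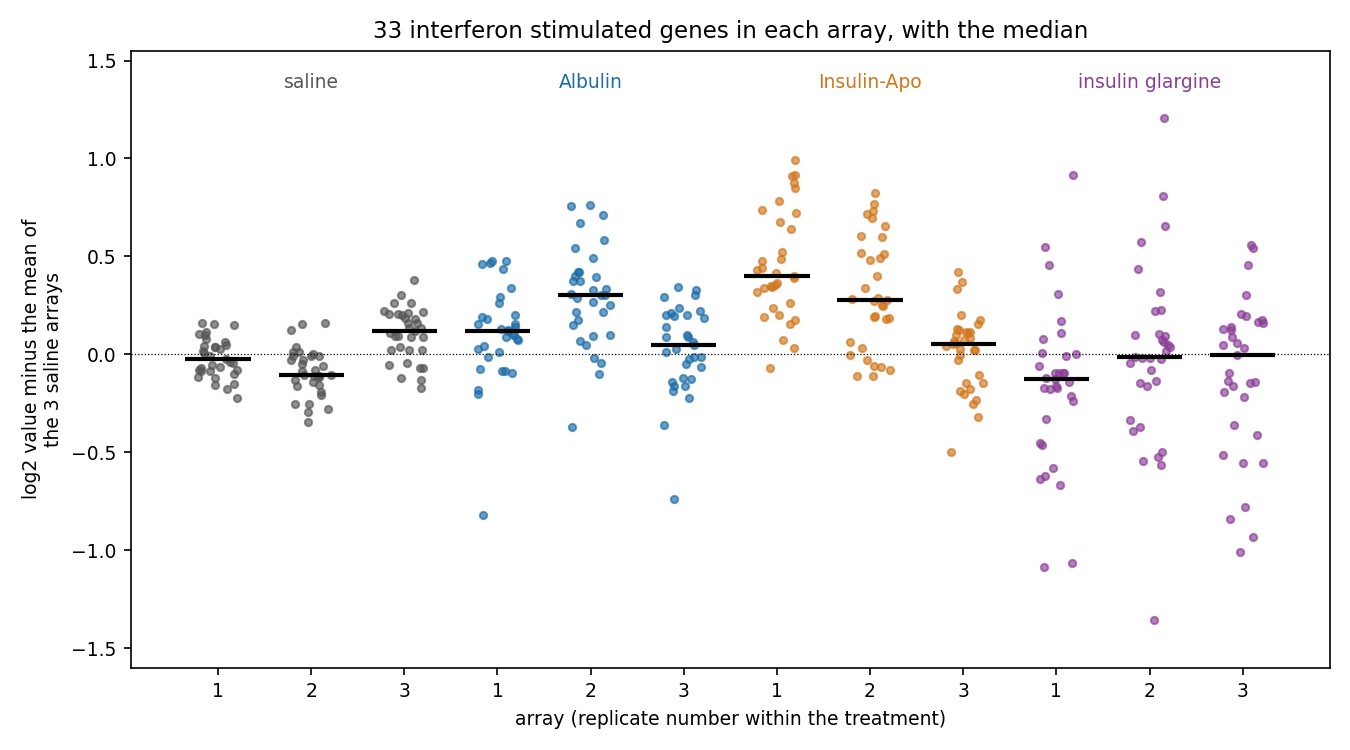
Each point is 1 of the 33 genes in 1 array, as the log2 value minus the mean of the 3 saline arrays, and the black bar is the median of the array. The medians run from -0.10 to 0.12 in saline, 0.05 to 0.30 after Albulin, 0.05 to 0.40 after Insulin-Apo and -0.12 to 0.00 after insulin glargine, where single genes spread furthest in both directions.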

How the data were processed

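Liver RNA was hybridized by the authors to 12 Affymetrix arrays of the type Mouse Gene ST. Per the labels the authors applied RMA, which corrects background, normalizes and summarizes probes, and the deposited table holds the resulting log2 values for 28213 probe sets. The RMA version, the annotation build and any joint normalization of the 12 arrays remain not given in the sources used here. The precision is limited by the 3 arrays per treatment. Differences were computed from these values with limma 3.58.1 in R 4.3.3 on probe sets that reached values over 5 in 2 or more arrays of any treatment, and calls required B over 0 (prior proportion 0.01). Saline, Albulin and Insulin-Apo were compared in a fit of their 9 arrays and insulin glargine in a fit of all 12. The code was tested on simulated data. The 39 genes, the lists and the rule for genes given in full (called or passing the F test, smallest F test p of a class, the 3 widest differences of a comparison) were chosen with earlier results of these data known. Array by array values of other pathway genes were added after their values were seen. Promoter sequences and motif counts came from RefSeq windows. Python 3.11.15 with matplotlib 3.10.9 drew the figures. Alternatives covered the filter, scaling, prior variance, array weights, arrays in the fit, call rule, probe set rule, replicate block and each array left out.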

Additional observations from a re-analysis of the deposited data

How the results depend on the processing

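Each comparison was computed again under the alternatives, and no called member changed direction. The share of all probe sets called was computed for the main setting and for an adjusted p under 0.05, not for the other alternatives. A rise or fall of the counts below therefore cannot be told apart from one over all probe sets. Iigp1 in its 3 comparisons, and Irf1 and Parp14 against insulin glargine in both fusion protein comparisons, kept their call in all 24 alternatives. Of the same 24, the call was lost for Parp14 against saline in 2, Gbp7 in 4, Ddx58 in 5, Oasl1 in 6 and Usp18 in 9. Ddx58 and Usp18 were among those lost when arrays were centred. With an adjusted p under 0.05 as the call, members counted 1 after Insulin-Apo against saline, 7 after insulin glargine against saline, and 10 for each fusion protein against insulin glargine. A log2 difference of at least 0.58 on top of it left 7 for Insulin-Apo against insulin glargine. With only the arrays of the 2 groups compared, 1 member, Stat2, was called after Albulin against saline. Leaving out 1 array at a time gave 0 to 1 called members for Albulin against saline, 0 to 3 for Insulin-Apo against saline, 0 to 1 between the fusion proteins, 2 to 5 for insulin glargine against saline, 3 to 6 for Albulin and 3 to 9 for Insulin-Apo against insulin glargine, and 7 to 15 in the F test. The median difference over the members then ranged from 0.08 to 0.24 for Albulin, 0.18 to 0.38 for Insulin-Apo and -0.13 to 0.04 for insulin glargine against saline, from -0.17 to 0.02 between the fusion proteins, and from 0.17 to 0.29 for Albulin and 0.20 to 0.44 for Insulin-Apo against insulin glargine. The cause was not tested.

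Between groups, the deviations of same-numbered arrays from their group means correlated at -0.26 to 0.14. These values cannot decide whether the replicate numbers pair the arrays, since each deviation is taken from a mean of only 3 arrays. With the replicate number as a block, 5 members, Irf1 added, were called after insulin glargine against saline, 4 in each comparison of a fusion protein with insulin glargine, 0 in the other 3 comparisons, and 9 in the F test.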
